A study of Rattus norvegicus with 19 samples.

Results

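The proteasome and ubiquitin-conjugation genes of the rat retina are described here across non-diabetic, diabetic and insulin-treated diabetic rats. Members were chosen by gene symbol, as genes named Psma to Psmg with a number, Ube2, Fbxl or Fbxo, without the inducible subunits Psmb8, Psmb9 and Psmb10. Of 97 such genes on the array, 1 probe each, 78 were detected on every array of at least 1 group, out of 7345 genes with a detected, named probe in all. They comprise 13 subunits of the 20S core, 16 of the 19S regulatory particle, 7 activators and assembly factors and 20 F-box proteins. A further 21 genes with the symbol Ube2, Ube2v1 and Ube2v2 among them, were counted as the class of E2 conjugating enzymes. The remaining member, Psmc3ip, matched by its symbol but encodes a recombination factor and not a proteasome subunit.

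Retinal RNA of male Sprague-Dawley rats was measured on Illumina RatRef-12 arrays, 1 array per rat. There were 7 non-diabetic controls injected with vehicle, 5 diabetic rats injected with streptozotocin (65 mg/kg) and 7 insulin-treated diabetic rats, injected in the same way and given 26 mg insulin pellets from week 6. Retinas were collected 3 months after injection from age-matched animals, whose age the sources used here do not give. Streptozotocin destroys insulin-producing cells, so the model is one of insulin deficiency, and whole retinas were used, so fewer cells of a type and less RNA per cell cannot be told apart.

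Proteins marked for destruction carry chains of ubiquitin. An E1 enzyme activates ubiquitin, an E2 enzyme carries it, and an E3 ligase passes it to the substrate, F-box proteins being the substrate-binding subunits of one large family of E3 ligases. The 19S particle receives and unfolds the tagged protein and feeds it into the 20S core, a barrel of alpha and beta rings whose Psmb5, Psmb6 and Psmb7 subunits cut it. Under interferon the beta subunits can be exchanged for inducible ones and the 19S cap for the PA28 ring of Psme1 and Psme2, a form known for making peptides for antigen presentation. In the retina, photoreceptors and neurons depend on this system for protein quality control.

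Signals below are log2 of the average-normalized intensity, and a gene was called where limma's adjusted p fell under 0.05 over all 10718 detected probes. The photoreceptor markers checked against the retina label, 7 of 7 genes, were detected, and their summed signal lay between 42520 and 59390 on all 19 arrays. The 9 lens genes (crystallins, Mip, Lim2, Bfsp1 and Gja3) were also detected, none of them at 0, and moved with the groups. Controls spanned a summed lens signal of 4034 to 56000 with a median of 37310, diabetic rats one of 11350 to 80420 with a median of 47060, and insulin-treated rats one of 1233 to 15310 with a median of 7218. All 9 were lower in insulin-treated than in diabetic rats, 8 of them with an adjusted p under 0.05 (limma). Of the other marker lists, 1 leukocyte gene of 5 named on the array was detected (Aif1), and the 3 pigment epithelium genes had a median difference of -1.11 between diabetic and control rats, with none called by limma. On insulin Vim, of the 3 Müller glia genes, fell by 0.93 and Crx, of the 7 photoreceptor genes, rose by 0.54, both called by limma. Neither list moved in 1 direction. Of the Müller glia genes 2 fell and 1 rose (median -0.17), and of the photoreceptor genes 4 rose and 3 fell (median 0.06). Vim was lowest in control replicates 1 and 3, which had the least lens signal of the controls (11.47 and 11.71, others 11.93 to 12.69). It was highest in diabetic replicate 4 (13.12) and insulin-treated replicate 3 (12.19), which had the most of their groups. Diabetic replicate 5, at a lens signal of 47060, had the lowest Vim of its group (12.27). Whether the fall of Vim lay in Müller glia was not tested.

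Few members differed between diabetic and control retinas. By limma 1 of 78 members was called (1.28%), the F-box gene Fbxo28, which fell, against 2.79% of all tested probes, 0.886% higher and 1.9% lower. Fbxo28 passed the detection filter through the groups where it was higher, and of the 74 members detected on all arrays none was called by limma, with 2 higher and 8 lower at an unadjusted p under 0.05. Of all 299 calls 31.8% were higher, a share that was 56.5% after quantile normalization. An unadjusted p under 0.05 was found for 11 members (14.1%), 2 of them higher, and for 20.8% of all probes. The study's thresholds, which join that p to a change of more than 1.2-fold, were passed by 6 members (7.69%), 1 higher and 5 lower, and by 14.3% of all probes. The median difference of the members was -0.05 and that of all probes was -0.07. In insulin-treated against diabetic rats 6 members were called (7.69%), 4 higher and 2 lower, against 10.4% of all probes, 6.49% higher and 3.93% lower. Of the 74 detected on all arrays 3 were called higher and 2 lower. An unadjusted p under 0.05 was found for 17 members (21.8%) and 27.1% of all probes, and the study's thresholds were passed by 8 members (10.3%) and 19.5% of all probes. Their median difference was 0.04 and that of all probes 0.06. Between insulin-treated and control rats no member was called by limma, as against 0.00933% of all probes. The 5 members with an unadjusted p under 0.05 (6.41%, against 8.98% of all probes) were Fbxl12 and Fbxo46 (detected on 6 of 7 control arrays), which were higher, and Psme2, Fbxo16 and Psmd12, which were lower, with adjusted p from 0.275 to 0.538. The first 2 comparisons share the 5 diabetic arrays and are not independent.

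Each class had its own mean on each array, taken over its members relative to the control mean. In diabetic rats the F-box mean was -0.10 ± 0.07 (SD, n = 5), and on insulin it was 0.03 ± 0.08 (SD, n = 7), while the 19S mean was -0.06 ± 0.05 and then -0.01 ± 0.02. For the 20S core it was near 0 in both, -0.002 ± 0.13 and -0.006 ± 0.05. The mean over all tested probes was itself -0.06 ± 0.06 in diabetic and -0.03 ± 0.05 in insulin-treated rats.

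**Figure D1:**
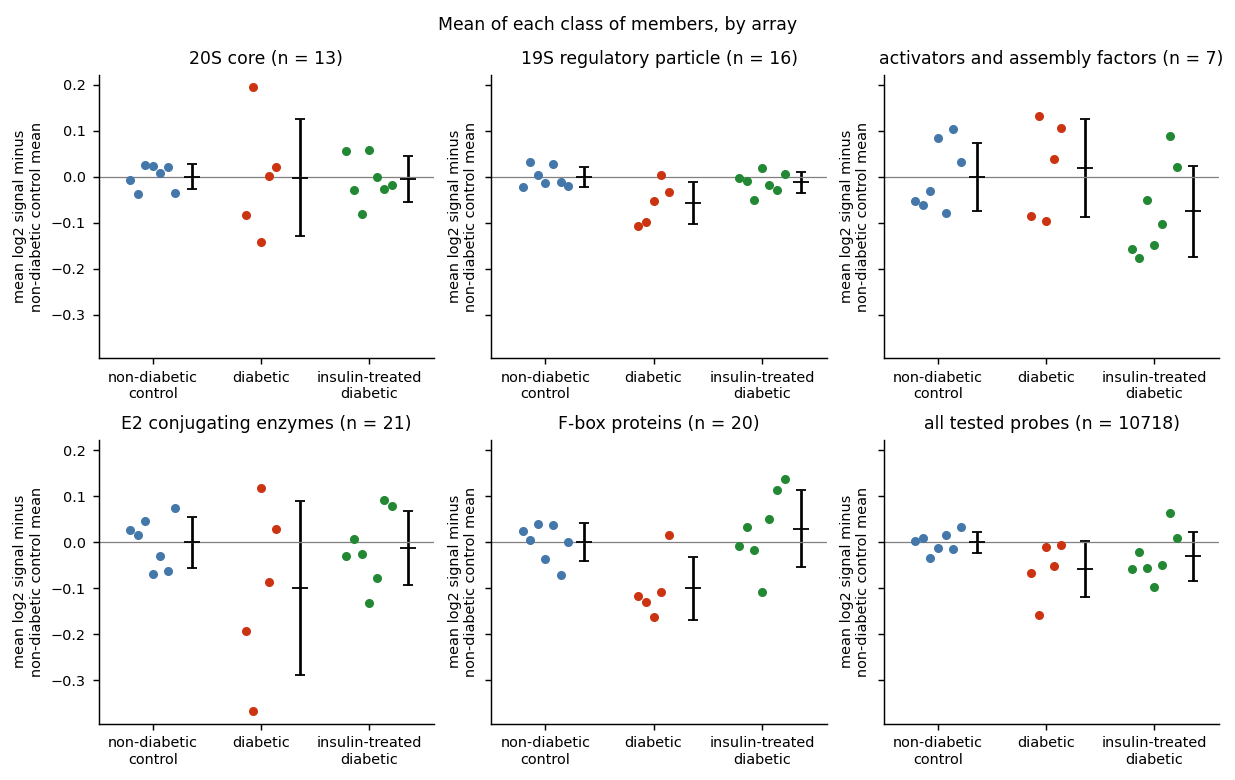
Mean log2 signal of each class of members and of all tested probes, relative to the mean of the non-diabetic controls, per array (points), with mean and SD beside them. All panels share 1 vertical scale, and the 19S mean of the 5 diabetic rats lies between -0.11 and 0.004.

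No change was detected in the 20S core. None of its 13 subunits reached an unadjusted p under 0.05 in any of the 3 comparisons, and differences between diabetic and control rats ran from -0.26 (Psma3) to 0.10 (Psmb1, a structural beta subunit). For 11 of the 13 subunits the 95% interval of this difference lay within a 1.2-fold change in either direction, the exceptions being Psma1 and Psma3. In insulin-treated against diabetic rats the intervals of 10 of 13 did, with Psmb5 as the further exception. Psmb5 carries the chymotrypsin-like activity of the proteasome and had signals of 10.44, 10.88, 10.35, 10.57 and 10.52 in the 5 diabetic rats. In controls it ran from 10.50 to 10.69 (median 10.57) and in insulin-treated rats from 10.51 to 10.99 (median 10.62), so all 3 groups overlapped. The alpha-ring subunit Psma3 spanned 5.08 to 5.74 in diabetic rats, with a median of 5.39, and 5.17 to 5.91 in controls, with a median of 5.66.

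In the 19S particle no gene was called by limma. Of its 16 members, 12 had a lower mean in diabetic than in control rats (11 after quantile normalization), as did 6932 of all 10718 probes. The ATPase gene Psmc4, part of the ring that unfolds substrates, had the smallest p. Its signal was 10.84, 10.90, 10.81, 10.86 and 10.98 in diabetic rats and ran from 10.92 to 11.13 (median 11.08) in controls. All but 1 of the diabetic rats lay below every control, and the difference was -0.17 (SE 0.06, limma adjusted p = 0.114). Psmc2, another ATPase of the same ring, differed by -0.14 (adjusted p = 0.261) and by 0.17 in insulin-treated against diabetic rats (adjusted p = 0.142). The 6 ATPases had a median difference of -0.09 in diabetic rats and 0.12 on insulin, and the 10 other 19S subunits of -0.06 and 0.05. Psmd4, a ubiquitin receptor of the particle, was at 10.19 ± 0.12 (SD, n = 7) in controls, 10.21 ± 0.08 (n = 5) in diabetic and 10.11 ± 0.12 (n = 7) in insulin-treated rats. Psmd12, a scaffold subunit of the 19S lid, was the one 19S gene with an unadjusted p under 0.05 between insulin-treated and control rats (difference -0.12, limma adjusted p = 0.538).

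**Figure D2:**
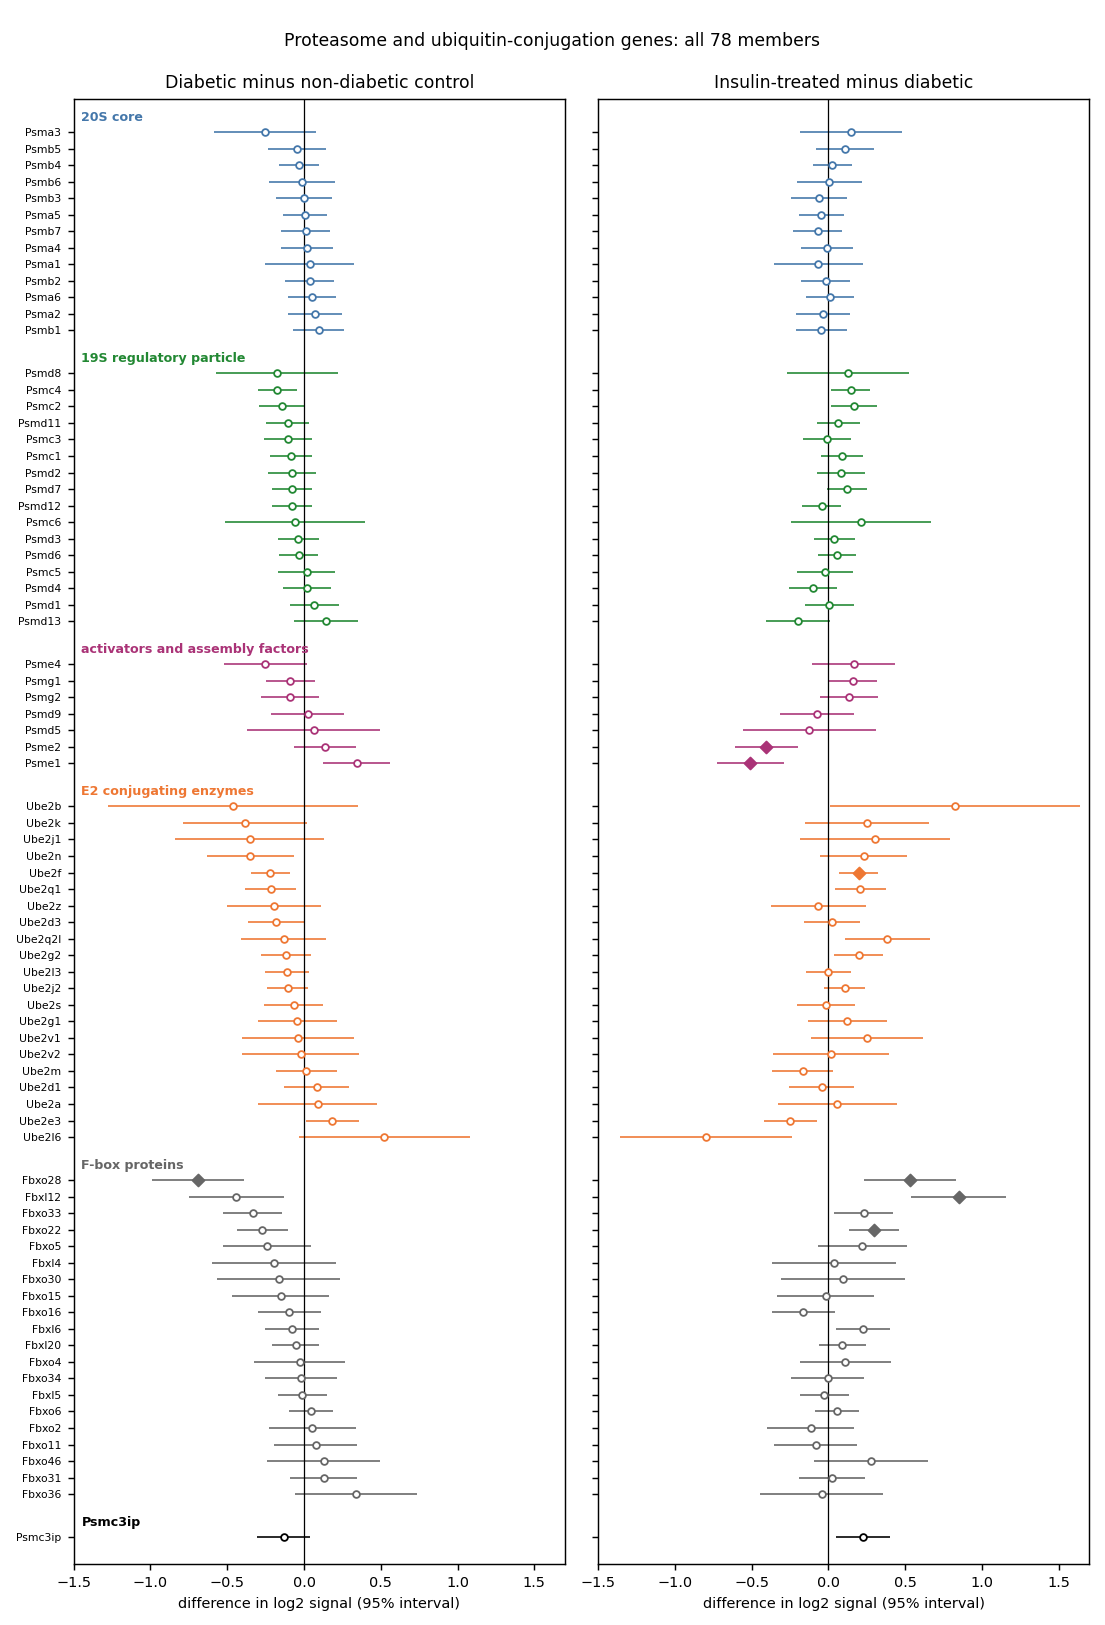
Difference in log2 signal with its 95% interval from limma for each of the 78 members, ordered within each class by the difference between diabetic and control rats (left), with the difference between insulin-treated and diabetic rats in the same order (right). Filled diamonds mark an adjusted p under 0.05, which 1 member reached on the left and 6 on the right. All 20S intervals cross 0, and on the left those of all but Psma1 and Psma3 lie within a 1.2-fold change.

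The PA28 activator genes Psme1 and Psme2 were the 2 members called lower on insulin by limma, among 31 of 78 with a lower mean. Psme1, which encodes PA28 alpha, had signals of 10.61, 10.98, 10.51, 10.89 and 10.75 in diabetic rats. In insulin-treated rats it ran from 10.03 to 10.64 (median 10.18) and in controls from 10.15 to 10.52 (median 10.48). Only insulin-treated replicate 3, at 10.64, reached into the diabetic range. The difference between insulin-treated and diabetic rats was -0.51 (SE 0.10, limma adjusted p = 0.00839), a 1.42-fold decrease seen in 7 of 7 insulin-treated rats against the diabetic mean. Diabetic rats were higher than controls by 0.34, with an adjusted p of 0.0731 (limma). In the 19 fits without 1 array this p ran from 0.0462 to 0.197. It was under 0.05 in 2 of them, without insulin-treated replicate 3 or without diabetic replicate 3.

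Psme2 encodes PA28 beta, the partner of Psme1 in the same ring. Its signal was 7.63, 7.99, 7.70, 7.99 and 7.64 in diabetic rats and ran from 7.26 to 7.62 (median 7.38) in insulin-treated rats, so that the groups did not overlap, as was true of 3.73% of all tested probes in this comparison. The difference was -0.40 (SE 0.10, limma adjusted p = 0.0161). Controls, from 7.37 to 7.90 (median 7.71), overlapped both groups, and diabetic rats differed from them by 0.14 (adjusted p = 0.438). Psme4, which encodes the separate activator PA200, had a difference of -0.25 in diabetic rats (adjusted p = 0.274). The assembly factors Psmg1 and Psmg2, which build the alpha ring, and Psmd5 and Psmd9, which help assemble the base of the 19S particle, were not called in any comparison by limma.

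**Figure D3:**
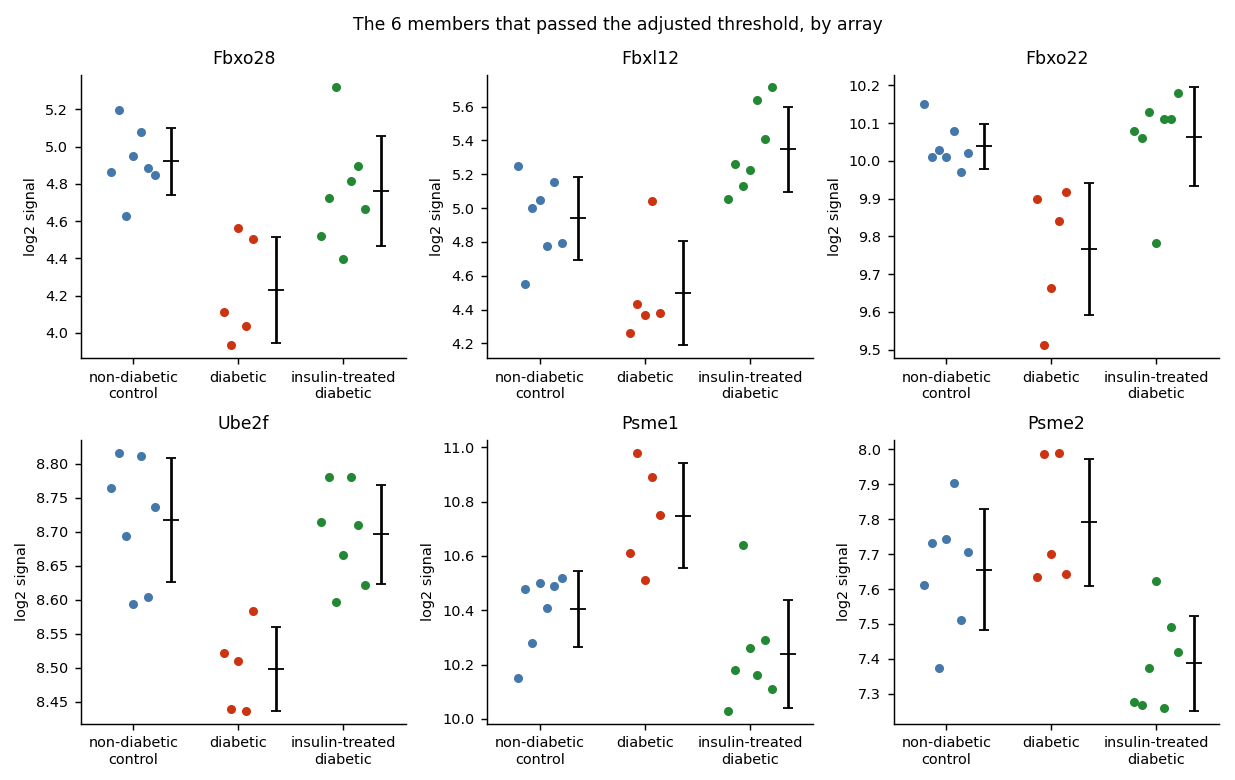
Log2 signal per array (points) with mean and SD for the 6 members called by limma, each panel on its own scale. Fbxo28, Fbxl12, Fbxo22 and Ube2f are low in diabetic rats, and Psme1 and Psme2 are low in insulin-treated rats.

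The inducible catalytic subunits, which are not members, lie next to PA28 in function. Psmb8 (LMP7) had signals of 7.17, 7.52, 8.53, 8.51 and 7.84 in diabetic rats. It ran from 6.85 to 7.31 (median 7.09) in controls and from 6.43 to 8.25 (median 6.83) in insulin-treated rats, of which replicate 3 was the highest. All but 1 of the diabetic rats lay above every control. Diabetic rats were higher by 0.84 (limma adjusted p = 0.0813, 0.0467 without diabetic replicate 1, 0.0419 without insulin-treated replicate 3, and up to 0.178 without another array). Psmb8 fell by 0.86 on insulin (adjusted p = 0.0443), and of 19 fits without 1 array the call was kept in those without control replicate 1 or 3, diabetic replicate 1 or insulin-treated replicate 3, and was lost in the other 15, with adjusted p up to 0.121. Psmb9 (LMP2) fell by 1.06 (adjusted p = 0.043), and this call was lost in 10 of 19 such fits, those without control replicate 6 or 7, diabetic replicate 2, 3 or 4 or insulin-treated replicate 1, 2, 4, 5 or 7. With a floor of 50 its difference on insulin was -0.23 (adjusted p = 0.172). Psmb9 was detected on all control and diabetic arrays but on 4 of 7 insulin-treated arrays. It thus passed the detection filter through the groups where it was higher. Diabetic rats differed from controls by 0.28 in Psmb9 (limma adjusted p = 0.655), and insulin-treated rats from controls by -0.79 (adjusted p = 0.351). Psmb10 (MECL-1) changed by 0.03 on its brighter probe and -0.11 on its other probe (adjusted p = 0.885 and 0.527). Ube2l6, the interferon-induced E2 of the ubiquitin-like protein ISG15, was at 5.79, 6.72, 7.08, 7.41 and 6.60 in diabetic rats. It ran from 5.65 to 6.60 (median 6.13) in controls and from 5.30 to 6.90 (median 5.84) on insulin, with replicate 3 again the highest. The difference on insulin was -0.80 (adjusted p = 0.0618 by limma, 0.0203 without insulin-treated replicate 3, 0.0211 without diabetic replicate 1, and up to 0.166 without another array).

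The leukocyte gene Aif1, a marker of microglia and macrophages, was highest on arrays that also stood out in these genes. Its signal was 7.25, 7.64, 8.03, 9.16 and 7.98 in diabetic rats and ran from 7.10 to 9.09 (median 7.57) on insulin and from 7.25 to 7.93 (median 7.63) in controls. Insulin-treated replicate 3 and diabetic replicate 4 had the highest Aif1 of their groups, and also the highest summed lens signal of their groups, 15310 and 80420. Diabetic replicate 4 had the highest Psmb9 and Ube2l6 of its group. The part of Aif1 in these differences was not tested.

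**Figure D4:**
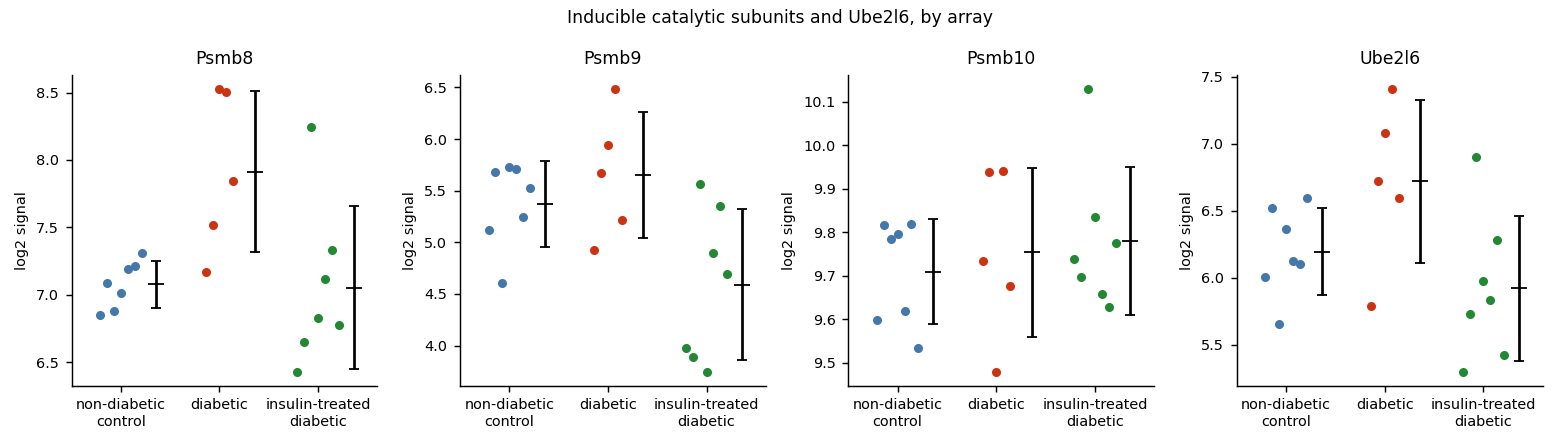
Log2 signal per array (points) with mean and SD for Psmb8, Psmb9, Psmb10 and Ube2l6, each panel on its own scale. The highest insulin-treated rat is the same animal, replicate 3, in all 4 panels.

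The promoters of these genes are shown because PA28 and the inducible subunits are known interferon targets. Each sequence is 300 bases from RefSeq (build GRCr8), 250 before and 50 after the annotated start, 5′ to 3′ in the direction of the gene. Capitals mark GAAANNGAA on either strand, the core bound by interferon regulatory factors, a motif chosen after the values had been seen.
Psme1, chr15:33038721-33039020, plus strand: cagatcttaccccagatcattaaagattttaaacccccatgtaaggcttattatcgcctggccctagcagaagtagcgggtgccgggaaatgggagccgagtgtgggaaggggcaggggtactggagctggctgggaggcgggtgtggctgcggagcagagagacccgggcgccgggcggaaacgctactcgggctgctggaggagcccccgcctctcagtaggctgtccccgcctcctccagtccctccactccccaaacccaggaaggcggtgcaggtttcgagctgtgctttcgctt
Psme2, chr15:33052702-33053001, minus strand: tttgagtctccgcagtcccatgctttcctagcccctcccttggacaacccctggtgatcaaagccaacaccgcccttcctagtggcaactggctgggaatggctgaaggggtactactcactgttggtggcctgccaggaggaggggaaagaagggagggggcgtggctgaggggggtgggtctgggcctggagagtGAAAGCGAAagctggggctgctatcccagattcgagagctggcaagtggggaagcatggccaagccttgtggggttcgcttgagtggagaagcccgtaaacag
Psmb8, chr20:4656982-4657281, minus strand: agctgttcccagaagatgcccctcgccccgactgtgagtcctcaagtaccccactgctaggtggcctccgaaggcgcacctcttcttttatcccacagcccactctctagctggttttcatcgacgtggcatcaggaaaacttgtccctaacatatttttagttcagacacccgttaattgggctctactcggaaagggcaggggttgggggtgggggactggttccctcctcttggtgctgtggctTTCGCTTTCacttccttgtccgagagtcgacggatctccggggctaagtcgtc
Psmb9, chr20:4668750-4669049, plus strand: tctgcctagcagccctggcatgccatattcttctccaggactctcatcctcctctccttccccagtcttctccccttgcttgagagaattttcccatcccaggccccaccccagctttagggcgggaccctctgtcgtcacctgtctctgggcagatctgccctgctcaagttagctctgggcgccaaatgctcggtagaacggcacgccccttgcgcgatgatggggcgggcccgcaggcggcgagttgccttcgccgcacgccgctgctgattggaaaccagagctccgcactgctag
Psmb10, chr19:50743243-50743542, minus strand: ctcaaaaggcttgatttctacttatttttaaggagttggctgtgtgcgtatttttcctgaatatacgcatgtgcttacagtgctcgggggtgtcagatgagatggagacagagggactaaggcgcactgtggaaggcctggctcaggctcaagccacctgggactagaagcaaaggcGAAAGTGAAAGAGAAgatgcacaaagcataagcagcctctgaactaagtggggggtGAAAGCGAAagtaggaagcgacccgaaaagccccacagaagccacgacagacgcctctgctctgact
Psme2 held 1 match, from base -53, Psmb8 held 1 on the other strand, from base -3, Psmb10 held 3, from bases -73, -67 and -17, of which the first 2 overlap, and Psme1 and Psmb9 held none in this window. The motif was present in 8 of the 73 member promoters in the RefSeq table (11%) and in 9.71% of all 33469 promoters.

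Other motifs, listed with the gene lists, were searched on both strands of the same windows. TGACNNNGC, the core of the antioxidant response element through which NRF1 drives proteasome genes, was found in 15 of 73 member promoters (20.5%) and 12.1% of all promoters. Among 20S genes 4 of 13 held it, namely Psma3, Psmb2, Psmb5 and Psmb6. The CCAAT box was found in 9 of 13 20S promoters (69.2%) and 37.5% of all promoters. GTAAACA, a FOXO site, was found in 1 member promoter (Psme2) and 3.78% of all. The promoter of Psmb5 is shown for the 20S core, with TGACNNNGC in capitals.
Psmb5, chr15:32047330-32047629, minus strand: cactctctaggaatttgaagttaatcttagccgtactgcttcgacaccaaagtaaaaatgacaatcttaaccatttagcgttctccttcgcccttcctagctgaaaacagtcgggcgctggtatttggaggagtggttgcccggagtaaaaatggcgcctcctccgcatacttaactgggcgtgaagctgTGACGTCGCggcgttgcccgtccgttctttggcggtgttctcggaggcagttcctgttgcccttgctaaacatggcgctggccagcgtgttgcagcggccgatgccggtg
The match in Psmb5 starts at base -60. The gene overlapped between all groups, as given above.

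Genes of the E2 class, taken by the symbol Ube2, were mostly lower in diabetic rats, with 16 of 21 means below control. Their median difference was -0.11 and no gene was called by limma, where 6932 of all 10718 probes were below control with a median of -0.07. After quantile normalization 13 of 21 means were below control, with a median of -0.04. Ube2f carries the ubiquitin-like protein NEDD8 to cullin-RING ligases. Its signal was 8.52, 8.44, 8.51, 8.44 and 8.58 in diabetic rats. In controls it ran from 8.59 to 8.82 (median 8.74) and in insulin-treated rats from 8.60 to 8.78 (median 8.71). The diabetic rats lay below every control and every insulin-treated rat. Between diabetic and control rats 3 members did not overlap (3.85%, against 2.98% of all probes), the others being Fbxo22 and Fbxo28. The differences of Ube2f were small, -0.22 in diabetic rats (SE 0.06, limma adjusted p = 0.0557) and 0.20 on insulin (adjusted p = 0.0434). The second call was lost in 11 of the 19 fits without 1 array (control replicates 1, 3 and 7, diabetic replicates 1, 2 and 4, insulin-treated replicates 1, 2, 5, 6 and 7), with adjusted p up to 0.0965. Without control replicate 4 or diabetic replicate 5 the adjusted p of the first was 0.0494 and 0.0496, and without another array it rose to as much as 0.1235. Ube2m, the other NEDD8 carrier, differed by 0.02 in diabetic rats and by -0.17 on insulin (adjusted p = 0.269).

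Among the other carriers, Ube2e3 had signals of 11.15, 11.20, 11.54, 11.12 and 11.26 in diabetic rats and ran from 10.94 to 11.23 (median 11.04) in controls and from 10.86 to 11.19 (median 11) on insulin. It differed by 0.19 in diabetic rats (limma adjusted p = 0.206) and by -0.25 on insulin (adjusted p = 0.0582, 0.0427 without insulin-treated replicate 1, and up to 0.117 without another array). Ube2n, which with Ube2v1 or Ube2v2 builds ubiquitin chains used in signalling and repair, differed by -0.35 in diabetic rats (adjusted p = 0.145). Ube2q1 differed by -0.22 (adjusted p = 0.127), and its 5 diabetic values, 9.87 to 10.08 (median 10.07), overlapped the control range of 10.07 to 10.36 (median 10.28). Ube2q2l differed by 0.38 between insulin-treated and diabetic rats (adjusted p = 0.0687). Ube2b, a homologue of yeast RAD6, which marks histones, was detected on all 7 insulin-treated arrays, 5 of 7 controls and 3 of 5 diabetic arrays. It entered the list only through the group where it was highest, and its differences had limma adjusted p of 0.515 and 0.178.

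Of the 20 F-box genes 3 were called on insulin (Fbxo28, Fbxl12 and Fbxo22), against 10.4% of all probes, and 14 had a lower mean in diabetic rats (12 after quantile normalization), as did 6932 of all 10718 probes. Fbxo28, known in human cells for ubiquitinating MYC, had signals of 4.11, 3.93, 4.57, 4.04 and 4.50 in diabetic rats. It ran from 4.63 to 5.20 (median 4.89) in controls and from 4.40 to 5.32 (median 4.72) in insulin-treated rats. Every diabetic rat lay below every control, while the diabetic and insulin-treated ranges overlapped. The difference was -0.69 in diabetic rats (SE 0.14, limma adjusted p = 0.0192), a 1.62-fold decrease, and 0.53 on insulin (adjusted p = 0.0262). Fbxo28 was a dim probe, detected on all control and insulin-treated arrays but on 2 of 5 diabetic arrays, so it passed the detection filter through the groups where it was higher. Without diabetic replicate 2 the adjusted p was 0.0565 in diabetic rats. Without diabetic replicate 1, 2 or 4 or insulin-treated replicate 6 it was between 0.0503 and 0.0796 on insulin.

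Fbxl12, an F-box protein with leucine-rich repeats, had the smallest p of the members on insulin. Its signal was 4.26, 4.43, 4.37, 5.04 and 4.38 in diabetic rats and ran from 5.05 to 5.71 (median 5.26) in insulin-treated rats. The ranges did not overlap, and diabetic replicate 4 stood close to the insulin-treated rats. Controls lay between, from 4.55 to 5.25 (median 5.00). The difference on insulin was 0.85 (SE 0.15, limma adjusted p = 0.00358), a 1.80-fold increase, and in diabetic rats against controls -0.44 (adjusted p = 0.0989). With a floor of 50 on the signal, which lies above most of its values, the difference on insulin was 0.0098 (adjusted p = 0.595). Insulin-treated rats were above controls by 0.41 (adjusted p = 0.275).

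Fbxo22, known in human cells for degrading the histone demethylase KDM4A, had signals of 9.90, 9.51, 9.66, 9.84 and 9.92 in diabetic rats. It ran from 9.97 to 10.15 (median 10.02) in controls and from 9.78 to 10.18 (median 10.11) on insulin. The diabetic rats lay below every control, and of the insulin-treated rats replicate 4 alone fell into the diabetic range. The difference was -0.27 in diabetic rats (limma adjusted p = 0.0638, 0.0387 without insulin-treated replicate 4, and up to 0.173 without another array) and 0.30 on insulin (adjusted p = 0.025). The latter was 0.0739 without diabetic replicate 2 and 0.0501 without insulin-treated replicate 7. Fbxo33 differed by -0.33 in diabetic rats (adjusted p = 0.0542, 0.038 without insulin-treated replicate 4, and up to 0.1395 without another array).

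The glycoprotein-binding F-box gene Fbxo2 was at 9.54 ± 0.10 (SD, n = 7) in controls and 9.59 ± 0.42 (n = 5) in diabetic rats. Fbxl5, the iron sensor that controls IRP2, differed by -0.01 in diabetic rats and by -0.03 on insulin. Fbxo32 (atrogin-1), a FOXO target that rises in wasting muscle, was detected on 8 of 19 arrays and is not among the 78. Its signal ran from 3.36 to 4.84 in controls, from 3.60 to 4.47 in diabetic and from 3.35 to 5.03 in insulin-treated rats, all overlapping. The other 18 genes below the filter were Fbxl7, Fbxl8, Fbxl15, Fbxl16, Fbxl17, Fbxl19, Fbxl22, Fbxo24, Fbxo39, Fbxo42, Fbxo48, Psma8, Psmb11, Psmd14, Ube2c, Ube2d2b, Ube2e2 and Ube2t.

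The called members were compared within each BeadChip, the slide that carries the arrays, since every group lay on both. Fbxl12 differed on insulin by 0.46 on BeadChip 1 and 1.23 on BeadChip 2, Fbxo28 by 0.47 and 0.59, Fbxo22 by 0.13 and 0.44 and Ube2f by 0.18 and 0.21. Psme1 differed by -0.54 and -0.51 and Psme2 by -0.43 and -0.38. Fbxo28 differed between diabetic and control rats by -0.63 and -0.74. Each difference thus had the same direction on both slides.

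The lens genes fell in the comparison with insulin, and a lens score added to the model left 2 of the 1117 called probes and none of the 6 called members by limma. Summed lens signal was 1233 to 15310 in insulin-treated and 11350 to 80420 in diabetic rats, so the score largely followed the groups compared. Lens signal and insulin treatment therefore cannot be told apart by this fit, and a lost call does not assign a difference to either. The differences on insulin then became 0.78 for Fbxl12, 0.71 for Fbxo28, 0.33 for Fbxo22 and 0.16 for Ube2f (adjusted p from 0.141 to 0.447). For Psme1 they became -0.23 and for Psme2 -0.23 (adjusted p = 0.427 and 0.479), against -0.51 and -0.40 without the score. For Psmb8 and Psmb9 they became -0.47 and -0.40 (adjusted p = 0.631 and 0.739), for Siah2 0.60 (adjusted p = 0.31) and for Herpud1 0.48 (adjusted p = 0.259). In diabetic against control rats Fbxo28 was at -0.76 with the score (adjusted p = 0.0259) and Herpud1 at -0.55 (adjusted p = 0.0504). The lens signal also varied within the controls and was lowest in replicates 1 and 3 (4034 and 7272). There Psme1 was 10.15 and 10.28 (other controls 10.41 to 10.52). The mean of the 3 inducible subunits relative to controls was -0.20 and -0.30 there (other controls 0.04 to 0.14). Psme2 was 7.61 and 7.37 there, but 7.51 in replicate 6 at a lens signal of 29310. The cause was not tested.

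Genes around the members were counted from lists of the same pathway. Beside these counts, limma called 6.49% of all tested probes higher and 3.93% lower on insulin. Of the 3 E1 genes detected, none was called by limma in any comparison, and Nae1, a subunit of the NEDD8-activating enzyme, differed by -0.21 in diabetic rats (adjusted p = 0.157). Of 25 cullin-RING genes, 1 was called higher on insulin, the NRF2 adaptor Keap1 (0.28, adjusted p = 0.0271). Of 18 other E3 ligases, 1 was called higher on insulin, the RING ligase Siah2 (0.73, adjusted p = 0.0145). Among 34 deubiquitinases, 30 had a lower mean in diabetic rats, with a median of -0.14 and none called by limma (23 lower and a median of -0.08 after quantile normalization), beside 6932 of 10718 probes of all with a median of -0.07. On insulin 2 of the 34 were called higher, Usp30 of the mitochondrial surface (0.20, adjusted p = 0.0266) and Usp15 (0.53, adjusted p = 0.041). Siah2 kept its call in all 19 fits without 1 array and lost it in 5 of 19 other alternatives, among them the methods' t-test (0.0669 after adjustment). The call of Keap1 was lost without diabetic replicate 1, 2 or 4 or insulin-treated replicate 2 or 6 (adjusted p up to 0.0684), and that of Usp30 without diabetic replicate 1, 2 or 4 or insulin-treated replicate 6 (up to 0.0698). The call of Usp15 was lost without diabetic replicate 2, 4 or 5 or insulin-treated replicate 2, 5, 6 or 7 (up to 0.122).

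Of 17 genes for p97 cofactors and shuttle factors, Herpud1 was the one called in diabetic rats, where 1.9% of all probes were called lower. Herpud1 and Faf2 were called higher on insulin, against 6.49% of all probes. Herpud1 organises the degradation of misfolded proteins of the endoplasmic reticulum. Its signal was 10.73, 10.20, 10.48, 9.90 and 10.45 in diabetic rats, from 10.66 to 11.15 (median 10.85) in controls and from 10.57 to 11.01 (median 10.91) on insulin. Only diabetic replicate 1 reached into the other ranges. It fell by 0.56 in diabetic rats (limma adjusted p = 0.0243, 0.0637 without diabetic replicate 2, 0.0505 without control replicate 7, and over 0.05 in 8 of 19 other alternatives) and rose by 0.50 on insulin (adjusted p = 0.0164). Faf2, which recruits p97 to the same pathway, rose by 0.32 (adjusted p = 0.0271, and 0.0507 to 0.0583 in the 6 fits without 1 array that lost the call, diabetic replicates 1 to 4 and insulin-treated replicates 5 and 6). Nfe2l2, which encodes NRF2, differed by 0.25 in diabetic rats (adjusted p = 0.314). No polyubiquitin gene had a detected, named probe.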

How the data were processed

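The authors used GenomeStudio, given as version 1.0.6 by the submitters' processing notes, to subtract the background from the bead intensities of 19 arrays and bring each array to a common mean. The deposited intensities are linear and come with a detection p-value for each probe. The deposited non-normalized intensities had a mean per array of 307 to 475, and 19 repeated detection columns were not used. Arrays that failed the authors' quality control, all of them from the diabetic and insulin-treated groups, are not analysed here. The paper counts more control arrays than the 7 used here, and the sources used here do not give the reason. Members and lists were chosen with earlier results of these data known.

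Signals under 10 were set to 10 and log2 was taken. A probe was tested if its detection p was under 0.05 throughout at least 1 group, with limma 3.58.1 (R 4.3.3), all 3 groups in 1 model, with Benjamini-Hochberg adjustment over 10718 probes; the procedure was tested on simulated data. Gene names come from the platform annotation, which names 13259 of 22517 probes. Psmf1 had no named probe, and some items are not reported here. The genes described are every member called or not overlapping between diabetic and control rats, the members of smallest p in each class, 11 chosen for their role, and of each further list those called and up to 2 of smallest p; Fbxl5, Psmg1, Psmg2, Psmd5, Psmd9, Ube2b, Fbxo16 and Fbxo46 were added after their values were seen. Promoters were matched by gene identifier, for 73 of 78 members, with pandas 2.3.3 and numpy 2.4.6, and figures drawn with matplotlib 3.10.9. The settings varied were the floor (1 and 50), the detection filter (p under 0.01, all arrays, none), the scaling (quantile, median-centred, neqc with offset 16), limma's intensity trend and array weights, the methods' t-test in its equal- and unequal-variance forms, a fit of only the groups compared, replicate or BeadChip blocks, each BeadChip alone, a lens score, the mean of a gene's probes, and each array left out. Each rat is 1 array, whose number limits the precision.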

Additional observations from a re-analysis of the deposited data

Results flagged for a closer look

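Of the 78 groups examined (26 named members in 3 groups), 6 held an array far from the others, and chance alone would flag about 1 group in 20. In diabetic rats, Fbxl12 was 5.04 on the array of replicate 4, where the others ran from 4.26 to 4.43, Psmc2 was 10.83 on replicate 3 (others 10.56 to 10.62) and Psmd11 was 11.93 on replicate 2 (others 12.20 to 12.30). In insulin-treated rats, replicate 4 had the lowest Fbxo22, 9.78 (others 10.06 to 10.18), and the highest Psmb7, 10.70 (others 10.32 to 10.43). In controls, Psma2 was 10.46 on replicate 2 (others 10.64 to 10.67).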

How the results depend on the processing

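The alternatives changed the counts, and turned the sign of differences that limma had not called. For each change below the cause was not tested. Of 1 member called between diabetic and control rats, 0 remained with non-normalized signals centred on the median, the t-test for unequal variances, or either BeadChip alone, while 2 were called at a detection p under 0.01, 3 with a floor of 50 and 4 with an intensity trend. Of the 6 on insulin, 0 were called by the t-test for unequal variances, on BeadChip 1 alone or with the lens covariate, 2 on BeadChip 2 alone and 3 with only the 2 groups compared. Between insulin-treated and control rats array weights called 1, Psme2. Members past the study's thresholds were 3 in place of 6 between diabetic and control rats with a floor of 50 or on BeadChip 1 alone. On insulin they were 5 and 13 in place of 8, with a floor of 50 and on BeadChip 2 alone. Between insulin-treated and control rats they were 1, 5, 0 and 5 in place of 3, with a floor of 50, no detection filter, median-centred signals and BeadChip 2 alone.

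The members' median between diabetic and control rats was -0.0183 with a floor of 50, -0.00969 with quantile normalization and -0.00969 with neqc. On insulin it was 0.00663 with a floor of 50, -0.00425 on BeadChip 1 alone and 0.0781 on BeadChip 2 alone. Between insulin-treated and control rats it was 0.0285 with median-centred signals and -0.0412 on BeadChip 1 alone. Over all 78 members the sign turned between diabetic and control rats for 8 with quantile normalization, 13 without diabetic replicate 2 and 19 on BeadChip 1 alone. On insulin it turned for 23 on BeadChip 1 alone, and between insulin-treated and control rats for 24 on BeadChip 2 alone. Of the 31 differences of described members that were followed, 4 turned, none of them called by limma, Psma2 between diabetic and control rats with array weights (-0.00867), Psma3 in that comparison (0.0927) and Psma6 between insulin-treated and control rats (-0.0417) on BeadChip 1 alone, and Psmb5 on insulin on BeadChip 2 alone (-0.00942). Fbxo28 had a difference of 0 with a floor of 50, which lies above its signals. With that floor Fbxl12 differed on insulin by 0.00983 (adjusted p = 0.595, limma). The Fbxo28 call in diabetic rats was also lost with no detection filter (limma adjusted p = 0.0504), and the call of Ube2f on insulin with quantile normalization or neqc (0.113 and 0.114). The share of higher probes among those called in diabetic rats, 31.8% of 299, was 56.5% of 283 with quantile normalization, 56.3% of 316 with neqc and 48.3% of 147 with median-centred signals.

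Leaving out 1 array, members called between diabetic and control rats numbered 0 to 3 (0 without diabetic replicate 2, 3 without diabetic replicate 5) and on insulin 3 to 8 (3 without diabetic replicate 2, 8 without insulin-treated replicate 4). The median on insulin was 0.0294 to 0.063, and members past the study's thresholds between insulin-treated and control rats numbered 2 to 5. Fbxl12, Psme1 and Psme2 kept their calls on insulin in all 19 such fits. Settings other than these ended the calls on insulin of Fbxl12, Psme1 and Psme2 in 4 of 19 each, of Fbxo22 in 7, of Ube2f in 9 and of Fbxo28 in 10 of 17 (7 of 17 in diabetic rats). They ended those of Psmb8 in 10 of 19, Psmb9 in 11 of 18, Herpud1 and Siah2 in 5 of 19, Keap1, Usp15 and Usp30 in 8 and Faf2 in 9.

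The replicate numbers of the groups do not pair the rats: of 17 same-numbered pairs 3 correlated above 0.1 in their deviations, and the median correlation was 0.008. With the replicate block 0 members were called between diabetic and control rats and 3 on insulin.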
